A study of Homo sapiens with 6 samples.

Results

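The insulin-like growth factor (IGF) system was described through 10 genes for its ligand IGF2, its receptors, the receptor substrates and 4 binding proteins, taken by symbol from the 14200 genes of the expression table. All 10 were present, and 9 of them reached the average level required for testing, 1 CPM (normalised read counts, scaled by library size) over the 6 libraries. The cells were Huh7, a long-established line grown from a human liver cancer, and their poly(A) RNA was sequenced from stranded libraries. There were 3 SETD5-deficient libraries, from cells transfected with siRNA against SETD5, a SET-domain chromatin protein, and 3 control libraries, for which the labels do not say what the cells received. Nothing in the labels ties replicates to independent cultures, so the p-values reflect library-to-library spread that may be technical in origin. With 3 libraries against 3, an exact two-sided permutation test cannot go below p = 0.1.

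IGF2 is a fetal growth factor that many liver tumours express. It binds IGF1R, a tyrosine kinase receptor that drives growth, and can also act through the insulin receptor INSR, whereas IGF2R takes IGF2 up for breakdown in lysosomes and does not signal as a kinase. Active receptors phosphorylate the substrates IRS1 and IRS2, which recruit PI3K and so activate AKT and mTOR. IGF-binding proteins, many of them secreted by liver, hold the ligands in solution, and proteases free the ligands again.

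SETD5 stood at 136, 140 and 138 CPM in the SETD5-deficient libraries, against 212, 210 and 202 CPM in the control libraries. The ratio of means was 0.664 (log2 fold change -0.59), so SETD5 RNA was reduced in the SETD5-deficient cells but not absent. Recovered reads numbered 14038447 to 17095417 per library, and the 10 hepatoma markers, all present, summed to 41000 to 41370 CPM in the SETD5-deficient libraries and to 43840 to 44774 CPM in the control libraries. That sum joins 7 markers that fell, 2 that rose and 1 that did not pass: TTR, APOB and TF were at 0.619, 0.682 and 0.784 times the control, and FGB and ALB at 1.18 and 1.07 times. Over all tested genes, 26.5% fell and 25.7% rose by the same rule (limma, adjusted p under 0.05). Of the markers of other cells, the immune pair PTPRC and CD68 summed to 8.94 to 10.1 CPM in the SETD5-deficient libraries and 6.73 to 8.86 CPM in the control libraries. The endothelial PECAM1 and CDH5 (2 of 3 listed, with VWF not analysed here) summed to 0.614 to 0.938 CPM in the SETD5-deficient libraries and 0.786 to 1.35 CPM in the control libraries. The stromal markers COL1A2 and PDGFRB (2 of 3, with DCN not analysed here) summed to 296 to 306 CPM in the SETD5-deficient libraries and 156 to 165 CPM in the control libraries, but moved in opposite directions: COL1A2 averaged 282 ± 6.06 CPM in SETD5-deficient cells and 135 ± 2.41 CPM in control cells (SD, n = 3 each), and PDGFRB 18.2 ± 0.72 CPM in SETD5-deficient cells and 25.2 ± 2.43 CPM in control cells. The biliary marker KRT19 (1 of 2, with KRT7 not analysed here) averaged 96.9 ± 2.65 CPM in SETD5-deficient cells and 114 ± 10.5 CPM in control cells. The part of these shifts in the results below was not tested.

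Of the 9 tested members, 8 changed, 4 higher and 4 lower in SETD5-deficient cells (limma, adjusted p under 0.05 over all 12865 tested genes). The same rule called 52.1% of all tested genes, 25.7% higher and 26.5% lower. The changes of the called members were 0.15 to 0.62 in absolute log2 units. In bulk RNA of this kind, fewer cells that express a gene and less RNA per cell cannot be told apart. Receptors and substrates each held members that went opposite ways: IGF1R and IRS2 were higher, and INSR, IGF2R and IRS1 lower. In 7 of the 9 tested members the libraries of the groups did not overlap, against 57.3% of all tested genes. The plot of levels by library shows these values.

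**Figure D1:**
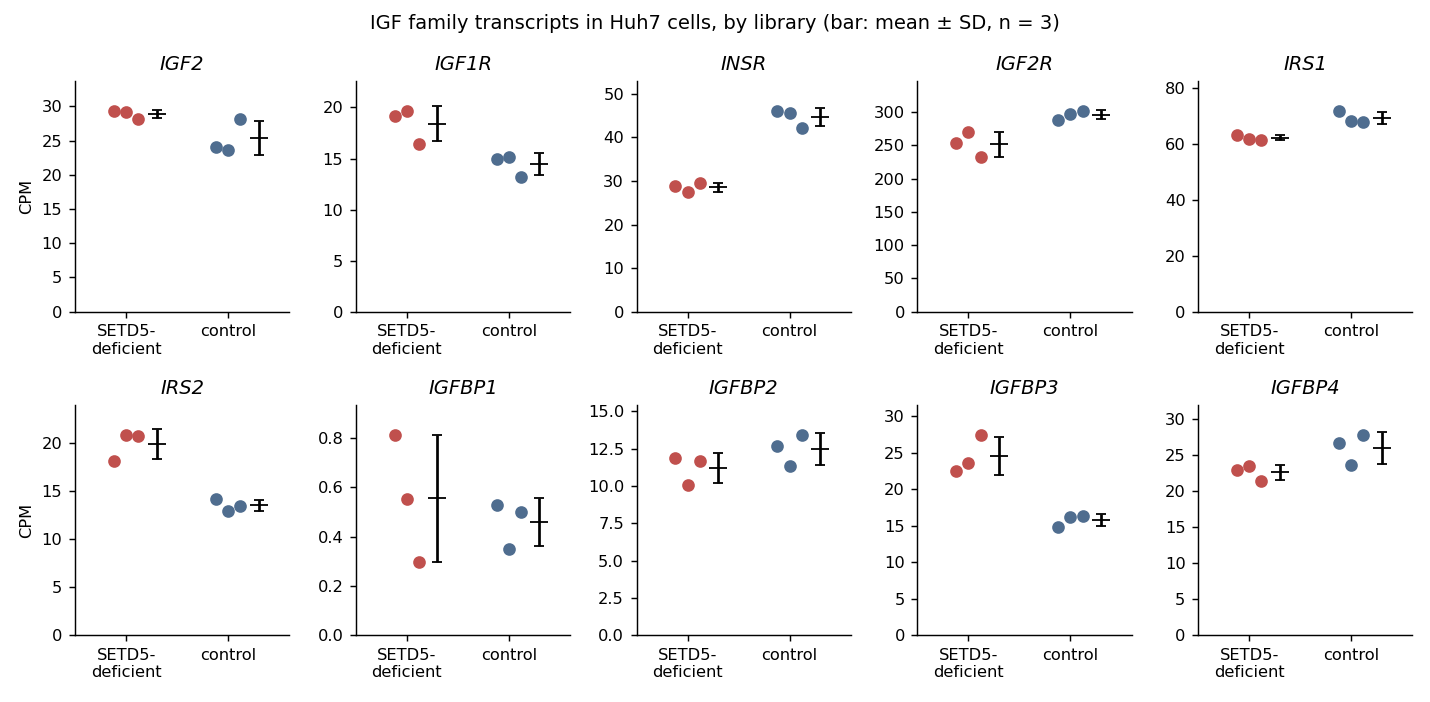
Level of each of the 10 members in CPM (vertical axis from 0, a separate scale per gene) in the 3 SETD5-deficient libraries (red) and the 3 control libraries (blue), with the mean ± SD beside the points. INSR and IGFBP3 show wide gaps between groups, whereas IGF2, IGFBP1 and IGFBP2 overlap.

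Among the receptors, INSR changed most. It stood at 28.8, 27.5 and 29.5 CPM in the SETD5-deficient libraries, against 46.0, 45.5 and 42.2 CPM in the control libraries. Every SETD5-deficient library lay below every control library, by more than the spread within either group. The mean was 28.6 ± 1.01 CPM in SETD5-deficient cells and 44.6 ± 2.05 CPM in control cells (SD, n = 3 each), a ratio of 0.641. The log2 fold change was -0.62 (95% interval -0.73 to -0.51), with a limma adjusted p of 2.99e-12. Of all tested genes, 5.56% had a change at least as large in absolute terms.

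IGF1R, the signalling receptor for IGF ligands, went the other way. It had 19.2, 19.6 and 16.4 CPM in the SETD5-deficient libraries, against 14.99, 15.1 and 13.2 CPM in the control libraries. The groups did not overlap, although SETD5-deficient replicate 3 lay close to the controls. The mean was 18.4 ± 1.73 CPM in SETD5-deficient cells and 14.4 ± 1.06 CPM in control cells (SD, n = 3 each), and the log2 fold change was 0.33 (95% interval 0.17 to 0.49, limma adjusted p = 0.000561).

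IGF2R, the clearance receptor and also a carrier of lysosomal enzymes, had 253, 270 and 232 CPM in the SETD5-deficient libraries, against 288, 297 and 301 CPM in the control libraries. All 3 SETD5-deficient libraries were lower, and they were more spread than the controls. The mean was 252 ± 19.1 CPM in SETD5-deficient cells and 296 ± 6.73 CPM in control cells (SD, n = 3 each), a log2 fold change of -0.23 (95% interval -0.31 to -0.16, limma adjusted p = 9.64e-07).

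The 2 substrates also parted. IRS2, the substrate that carries much of the insulin signal in liver, had 18.1, 20.9 and 20.7 CPM in the SETD5-deficient libraries, against 14.2, 13.0 and 13.4 CPM in the control libraries. It was 1.47 times the control level, with no overlap, at a log2 fold change of 0.52 (95% interval 0.37 to 0.68, limma adjusted p = 2.86e-07). IRS1 had 63.3, 61.8 and 61.5 CPM in the SETD5-deficient libraries, against 71.8, 68.3 and 67.7 CPM in the control libraries. That difference was small but larger than the spread within groups, at a log2 fold change of -0.15 (95% interval -0.24 to -0.07, limma adjusted p = 0.00222). The plot of fold changes sets the 9 tested members side by side.

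**Figure D2:**
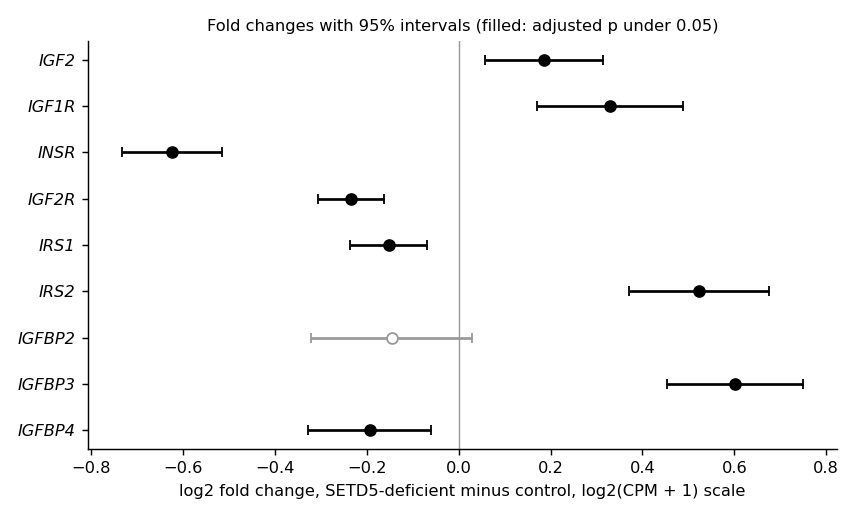
Log2 fold change of each tested member (horizontal axis, SETD5-deficient minus control, on the log2(CPM + 1) scale) with its 95% interval from limma; filled points passed an adjusted p under 0.05. INSR lies lowest at -0.62 and IGFBP3 highest at 0.60, and the interval of IGFBP2 spans 0.

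Ratios between members within a library do not depend on how libraries are scaled. The 3 ratios given here were chosen after the values were seen, each with its upper gene higher and its lower gene lower in SETD5-deficient cells, so they are a description with no test. IGF1R to INSR was 0.667, 0.714 and 0.558 in the SETD5-deficient libraries, against 0.326, 0.332 and 0.313 in the control libraries. The mean ratio was thus 2.00 times the control. IRS2 to IRS1 averaged 0.32 ± 0.0291 in SETD5-deficient cells and 0.195 ± 0.00467 in control cells (SD, n = 3 each), 1.64 times as high, also with no overlap. IGF2 to IGF2R averaged 0.115 ± 0.00681 in SETD5-deficient cells and 0.0856 ± 0.0072 in control cells (SD, n = 3 each). Its groups did not overlap either, where IGF2 by itself overlapped and IGF2R by itself did not. For IGF1R to INSR and IRS2 to IRS1, each gene alone already separated the groups, in opposite directions. The lack of overlap of those ratios was therefore fixed in advance. That of IGF2 to IGF2R was likewise fixed by the ranges of its genes. IGF2 was at least 28.17 CPM in SETD5-deficient libraries and at most 28.22 CPM in control libraries. IGF2R was at most 270 CPM in SETD5-deficient libraries and at least 288 CPM in control libraries. The ratios thus add no separate evidence. The plot of ratios shows each library.

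**Figure D3:**
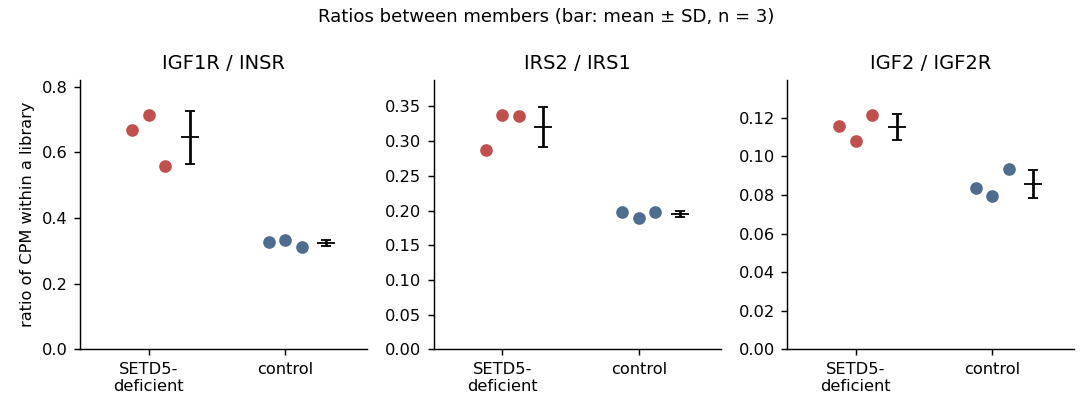
Ratio of the CPM of a pair of members in each library (vertical axes from 0, no unit), for IGF1R to INSR, IRS2 to IRS1 and IGF2 to IGF2R, with the mean ± SD of 3 libraries beside the points. All SETD5-deficient libraries (red) lie above all control libraries (blue) in each panel, for pairs chosen in this direction after the values were seen.

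The ligand IGF2 had 29.3, 29.2 and 28.2 CPM in the SETD5-deficient libraries, against 24.1, 23.7 and 28.2 CPM in the control libraries. Control replicate 3 reached the level of the SETD5-deficient libraries, so the groups overlapped, and the exact permutation test gave p = 0.2. The log2 fold change was 0.19 (95% interval 0.06 to 0.31), with a limma adjusted p of 0.0136. That call rested on single libraries: the limma adjusted p was 0.0511 without SETD5-deficient replicate 1, 0.0755 without control replicate 1 and 0.0846 without control replicate 2. IGF2-AS, an antisense transcript that GENCODE 29 places on the opposite strand within IGF2, was looked up after the values of IGF2 were seen. It had 11.3, 10.7 and 11.7 CPM in the SETD5-deficient libraries, against 6.56, 6.83 and 6.79 CPM in the control libraries, with a log2 fold change of 0.67 (limma adjusted p = 1.06e-07). The library kit keeps the strand, but no source used here says that the counting did, so reads of the sense and antisense genes may not have been told apart.

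Among the binding proteins, IGFBP3, the main carrier of IGFs in serum, was the member with the largest rise. It had 22.5, 23.6 and 27.5 CPM in the SETD5-deficient libraries, against 14.8, 16.2 and 16.3 CPM in the control libraries. The groups did not overlap, and the ratio of means was 1.55, with a log2 fold change of 0.60 (95% interval 0.45 to 0.75, limma adjusted p = 1.07e-08). IGFBP4, which mostly restrains IGF action, had 23.0, 23.5 and 21.4 CPM in the SETD5-deficient libraries, against 26.8, 23.6 and 27.9 CPM in the control libraries. Control replicate 2 lay just above the highest SETD5-deficient library. Its log2 fold change was -0.19 (95% interval -0.33 to -0.06, limma adjusted p = 0.0133). The limma adjusted p was 0.0737 without SETD5-deficient replicate 3, 0.0585 without control replicate 1 and 0.101 without control replicate 3, so this call too rested on single libraries.

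IGFBP2, a binding protein abundant in fetal liver, did not pass, at 11.2 ± 0.99 CPM in SETD5-deficient cells and 12.5 ± 1.06 CPM in control cells (SD, n = 3 each). The interval of its log2 fold change, -0.32 to 0.03, does not show that the groups were alike. IGFBP1, a hepatocyte gene that insulin represses, was near the floor of detection, with 13, 9 and 5 reads in the SETD5-deficient libraries, against 9, 5 and 7 reads in the control libraries. It was below the limit for testing. In a fit with no such limit its log2 fold change was 0.08, with a 95% interval of -0.24 to 0.40 (limma adjusted p = 0.698), so a change of moderate size was not detectable at this depth.

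Levels of different genes were compared per kilobase of the longest coding transcript in GENCODE 29. In both groups IGF2R was the highest member, at 17.9 ± 1.36 CPM per kb in SETD5-deficient cells and 21.1 ± 0.479 CPM per kb in control cells (SD, n = 3 each). IRS2, IGF1R and IGFBP1 were the lowest in both groups, in that order. The order between them differed in part. In SETD5-deficient cells it ran IGFBP4, IGFBP3, IGFBP2, IRS1, IGF2 and INSR, and only IGFBP4 and IGFBP3 overlapped among neighbours. In control cells it ran IGFBP4, IGFBP2, IRS1, IGFBP3, INSR and IGF2, and only INSR and IGF2 overlapped. IGFBP3 stood at 10.2 ± 1.08 CPM per kb in SETD5-deficient cells and 6.54 ± 0.346 CPM per kb in control cells (SD, n = 3 each), and INSR at 3.19 ± 0.112 CPM per kb in SETD5-deficient cells and 4.98 ± 0.229 CPM per kb in control cells. These levels depend on the transcript used for the length: INSR has a shorter coding transcript too, and a shorter length would raise its value.

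**Figure D4:**
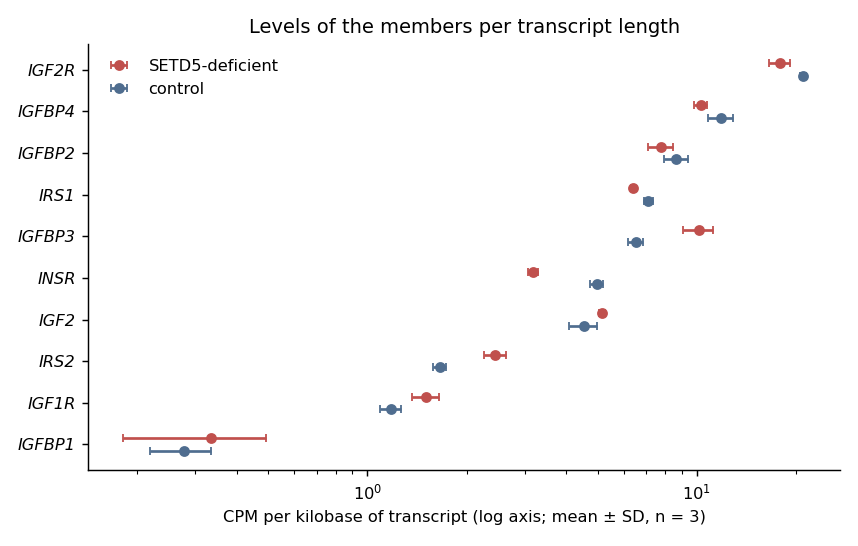
Level of each member in CPM per kilobase of transcript (horizontal log axis, mean ± SD of 3 libraries) in SETD5-deficient (red) and control (blue) cells, ordered by the control level. IGF2R is highest and IGFBP1 lowest in both groups, and IGFBP3 and INSR change places with their neighbours.

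Short words in the 3' UTRs of the members were read because an earlier analysis of these data had noted the 6-base word GCACCT in the 3' UTRs of many genes that fell. The longest coding transcript of each gene in GENCODE 29 (GRCh38) was searched on the sense strand. The word was found in 5 of the 10 members, at 7 places, and in 31.2% of the 11581 tested genes with a 3' UTR. The 7 sites are printed 5′ to 3′ as in the transcript, with GCACCT in capitals, so that their flanks can be compared:

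INSR, first site: tggaaagaaaGCACCTgtttttacaa

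INSR, second site: ggctggtgatGCACCTtacacacaaa

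IGF2R, first site: ggacagccaaGCACCTccaaccaaat

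IGF2R, second site: aggaatggctGCACCTttttgcatga

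IGFBP2: accgagctcgGCACCTccccggcctc

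IGF1R: acctttctcaGCACCTgacaataggc

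IRS2: atctgcttatGCACCTctgcttagtg

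The INSR sites lie at chr19:7116726-7116751 and chr19:7114163-7114188 on the minus strand, and the IGF2R sites at chr6:160105119-160105144 and chr6:160105788-160105813 on the plus strand. The single sites are at chr2:216664244-216664269 (IGFBP2, plus strand), chr15:98960112-98960137 (IGF1R, plus strand) and chr13:109753373-109753398 (IRS2, minus strand), all in GRCh38. Both members with a pair of sites, INSR and IGF2R, were lower in SETD5-deficient cells. Of those with 1 site, IGF1R and IRS2 were higher and IGFBP2 did not pass. Over all tested genes, no shares were worked out by number of sites, so a role of that number was not tested. IRS1 and IGFBP4 were lower without the word, and IGF2, IGFBP3 and the siRNA target SETD5 also lacked it in this transcript. Over all tested genes, 33.7% of those with the word and 24.3% of those without it were called lower, and the median log2 fold changes were -0.03 and 0.01. The word had been noted in these same data among genes that fell, so this difference follows from its choice and is no separate evidence. Genes with the word had longer 3' UTRs, with medians of 2641 and 919 bases. Those of INSR and IGF2R have 4801 and 6420 bases, and those of IGF1R and IRS1 have 7088 and 4955 bases. The part of the word in the change of any member was not tested.

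Of 8 further ligands, receptors and binding proteins, 3 were tested and 1 rose, so 33.3% were called against 52.1% of all tested genes. IGF1, INS, IGFALS and INSRR were not analysed here. IGFBP5, which binds IGFs in the matrix around cells, was at 4.63, 3.68 and 5.98 CPM in the SETD5-deficient libraries, against 0.703, 1.18 and 0.857 CPM in the control libraries. The ratio of means was 5.21 with no overlap, and the log2 fold change 1.58 (95% interval 1.28 to 1.87, limma adjusted p = 2.07e-11). The level was low, at 12 to 100 reads per library, and the log2 fold change was 2.26 with a pseudocount of 0.1 and 2.37 under voom. IGFBP6 and IGFBP7 did not pass, at 5.34 ± 0.473 and 1.71 ± 0.349 CPM in SETD5-deficient cells, against 5.02 ± 0.607 and 2.02 ± 0.133 CPM in control cells (SD, n = 3 each).

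Of 6 tested proteases of binding proteins and inhibitors of such proteases, 2 fell and none rose, and 4 did not pass, so 33.3% were called against 52.1% of all tested genes. The membrane protease ADAM9 averaged 461 ± 14.0 CPM in SETD5-deficient cells and 557 ± 12.4 CPM in control cells (SD, n = 3 each, limma adjusted p = 2.49e-10). ADAM28, reported to cleave IGFBP3, was at 0.673 times the control. STC2, an inhibitor of the IGFBP4 protease PAPPA, averaged 56.0 CPM in SETD5-deficient cells and 59.1 CPM in control cells and did not pass. The lysosomal protease CTSD averaged 281 CPM in SETD5-deficient cells and 270.1 CPM in control cells and did not pass either.

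The mRNA-binding protein IGF2BP1, which binds IGF2 transcripts, was higher, at 394 ± 18.6 CPM in SETD5-deficient cells and 350 ± 1.13 CPM in control cells (SD, n = 3 each, limma adjusted p = 1.07e-05). IGF2BP2 and IGF2BP3 were within 2 CPM of the control mean and did not pass. Of 10 tested genes that share the IGF2 imprinted region or are imprinted or regulatory partners of IGF2, 4 rose and 4 fell, 80% against the 52.1% called over all tested genes. CDKN1C, a growth-restraining imprinted neighbour of IGF2, averaged 7.36 ± 0.994 CPM in SETD5-deficient cells and 2.56 ± 0.262 CPM in control cells (SD, n = 3 each). DLK1, another imprinted fetal growth gene, averaged 54.6 ± 3.54 CPM in SETD5-deficient cells and 101 ± 6.15 CPM in control cells. HMGA2 and E2F3, both described as activators of the IGF2 axis, were at 1.19 and 1.29 times the control. PLAG1, a zinc finger activator of IGF2, and its relative PLAGL1 fell to 0.83 and 0.848 times the control (limma adjusted p = 0.00575 and 0.000418), both without overlap and both named after their values were seen. The insulator protein CTCF was at 1.08 times, and its limma adjusted p was 0.0872 when control replicate 1 was left out and 0.0785 in a fit with no mean-variance trend. SLC22A18 was at 0.751 times the control, a call that ended without control replicate 1 (limma adjusted p = 0.104), control replicate 2 (0.074), SETD5-deficient replicate 2 (0.0725) or SETD5-deficient replicate 3 (0.0694).

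Receptor adaptors and brakes were split, with 7 of 28 higher and 9 lower, 57.1% against 52.1% of all tested genes (median log2 fold change -0.06, against -0.0012 for all tested genes). GRB10, an adaptor that restrains INSR and IGF1R, had 135, 136 and 126 CPM in the SETD5-deficient libraries, against 90.8, 92.4 and 93.0 CPM in the control libraries, a log2 fold change of 0.52 (limma adjusted p = 1.74e-14). ENPP1, a membrane enzyme that inhibits INSR, went the other way at 105, 105 and 102 CPM in the SETD5-deficient libraries, against 158, 154 and 156 CPM in the control libraries (log2 fold change -0.58, limma adjusted p = 5.70e-17). The docking protein GAB2 was at 0.694 times the control. SH2B2 rose at a low level, with a log2 fold change of 0.55 that was 0.98 with a pseudocount of 0.1 and 1.07 under voom. The receptor phosphatase PTPRF and the scaffold GNB2L1 did not pass.

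Below the receptors, 6 of 24 genes of PI3K, AKT and their phosphatases rose and 6 fell, 50% against 52.1% of all tested genes. The regulatory subunits of PI3K, which bind phosphorylated IRS proteins, differed among themselves. PIK3R3 had 64.9, 67.1 and 65.4 CPM in the SETD5-deficient libraries, against 31.3, 32.2 and 31.9 CPM in the control libraries, a log2 fold change of 1.03 (limma adjusted p = 6.40e-20). PIK3R2 had 87.1, 85.5 and 83.9 CPM in the SETD5-deficient libraries, against 133, 125 and 132 CPM in the control libraries, a log2 fold change of -0.60 (limma adjusted p = 2.23e-16). PIK3R1, named after its values were seen, averaged 71.6 ± 1.77 CPM in SETD5-deficient cells and 60.7 ± 2.16 CPM in control cells (SD, n = 3 each, limma adjusted p = 1.30e-05). The lipid phosphatase INPP5D and the pseudokinase TRIB2 fell to 0.665 and 0.693 times the control, and the phosphatase subunits PPP2CA and PPP2R1A did not pass.

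Of 21 genes of the mTOR complexes and their outputs, 9 rose and 4 fell, 61.9% against 52.1% of all tested genes. The kinase SGK1, which PI3K activates, averaged 114 ± 8.39 CPM in SETD5-deficient cells and 54.3 ± 2.48 CPM in control cells (SD, n = 3 each), a log2 fold change of 1.06 (limma adjusted p = 8.78e-21). The kinases RPS6KB1, GSK3B and GSK3A were at 1.22, 1.2 and 1.17 times the control, and EIF4EBP2, a brake on translation, at 0.862 times. Most of the changes were small, and without the mean-variance trend 7 genes passed in place of 13.

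Of 18 FOXO factors and genes that FOXO induces, which insulin and IGF signalling hold down in liver, 9 rose and 1 fell, with a median log2 fold change of 0.13. The share called, 55.6%, was near the 52.1% of all tested genes. The cyclin CCNG2 averaged 39.1 ± 1.84 CPM in SETD5-deficient cells and 21.6 ± 0.615 CPM in control cells (SD, n = 3 each, limma adjusted p = 1.24e-14). The stress protein SESN3, the kinase PDK4 and GADD45B were at 1.34, 1.66 and 1.29 times the control. The level of PDK4 was low, at 20 to 53 reads per library, and its log2 fold change ranged over 0.43 to 0.73 in alternative fits. The 1 gene that fell was FOXO1 itself, named after its values were seen, at 31.5 ± 2.58 CPM in SETD5-deficient cells and 37.1 ± 0.887 CPM in control cells (SD, n = 3 each, limma adjusted p = 0.000786). The cell cycle inhibitor CDKN1B did not pass.

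Of 17 genes that work with IGF2R in lysosomal sorting or bind it, 5 rose and 3 fell, 47.1% against 52.1% of all tested genes. SORT1, a sorting receptor of the same transport route, averaged 39.1 ± 1.10 CPM in SETD5-deficient cells and 75.1 ± 1.87 CPM in control cells (SD, n = 3 each, limma adjusted p = 3.18e-19). PLAU, whose receptor PLAUR binds IGF2R, averaged 58.9 ± 2.93 CPM in SETD5-deficient cells and 25.7 ± 3.02 CPM in control cells (limma adjusted p = 1.92e-18), whereas PLAUR, named after its values were seen, averaged 1.49 CPM in SETD5-deficient cells and 1.42 CPM in control cells and did not pass. Other changes of the list were small. GNPTAB lost its call without SETD5-deficient replicate 1 (limma adjusted p = 0.0531), and VPS26A without that library (0.124), control replicate 1 (0.116) or control replicate 3 (0.0689). The count of called genes in this list was 8, but 5 without SETD5-deficient replicate 1 or without control replicate 1, and 4 without the mean-variance trend. The plot of lists shows all tested genes by list.

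**Figure D5:**
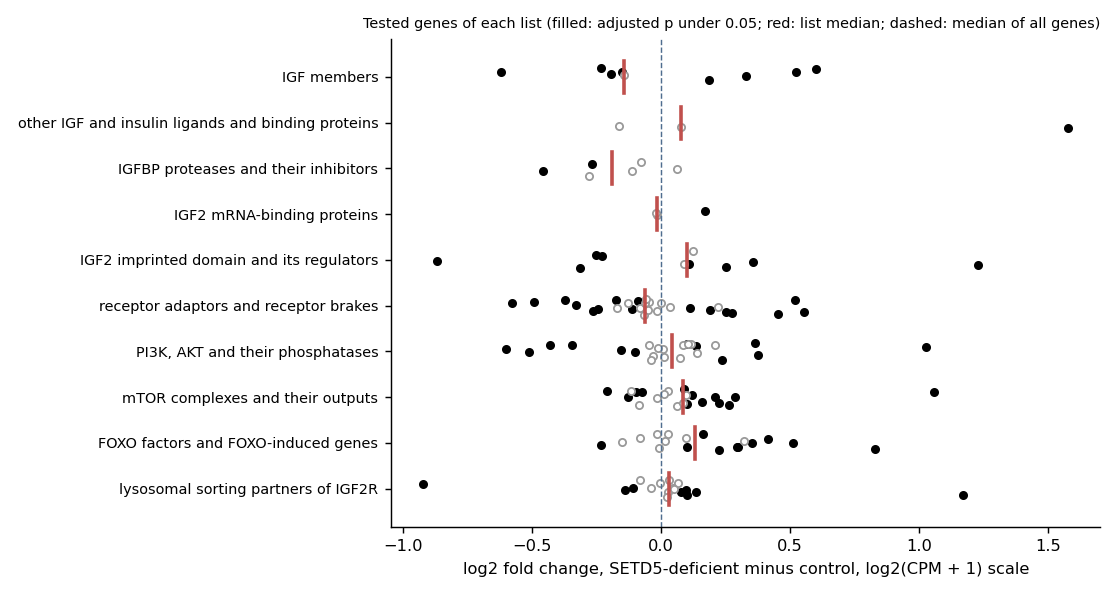
Log2 fold change (horizontal axis, SETD5-deficient minus control, log2(CPM + 1) scale) of each tested gene in the IGF members and 9 further lists, one row per list; filled points passed an adjusted p under 0.05, red bars are list medians and the dashed line is the median of all tested genes. IGFBP5, CDKN1C and PLAU stand farthest to the right at 1.58, 1.23 and 1.17, and SORT1 and DLK1 farthest to the left at -0.92 and -0.87.

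Genes whose profile over the 6 libraries was most like that of 2 members were sought among the 9451 tested genes that averaged 10 CPM or more. For INSR, these were AGPAT3, XKR8 and SLC35G1, with root mean square differences of 0.0309, 0.032 and 0.0355 in log2 units after centring. For IGF2, they were CDK11A, ZKSCAN5 and FDX1L, with differences of 0.0266, 0.0276 and 0.0286. Of these, FDX1L did not pass (limma adjusted p = 0.0566). Likeness over 6 libraries in 2 groups does not show that genes are regulated together. CDK11A has a near-identical copy, so its reads are uncertain.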

How the data were processed

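The authors deposited 1 table of log2 values of normalized CPM for 14200 genes in 6 columns, matched to libraries by title. Poly(A)-selected stranded libraries were made, per the labels' protocols. The submitters' processing notes name STAR 2.5.1, R 3.3.0, hg19 and mm10 without a role; the counting, annotation, scaling and gene filter were not given in these sources. After undoing the logarithm and subtracting 1, 100% of values fell within 0.01 of a whole multiple of their column's step, so CPM and whole reads were recovered. The floor of 3 reads (0.176 to 0.214 CPM) covers counting error only; the 95% intervals are limma's and rest on the spread between libraries.

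The 12865 genes averaging 1 CPM or more were tested with limma 3.58.1 in R 4.3.3 (mean-variance trend, two-sided, group as the only term). P-values were adjusted over all tested genes by the Benjamini-Hochberg method at 0.05. Fold changes on the log2(CPM + 1) scale understate changes of low genes; times-control values are ratios of mean CPM. The script was tested on simulated data. Chi-square statistics per gene spanned 1.25 to 2.10 for pairs within a group and 19.7 to 24.1 for pairs across groups. Each library was counted as 1 sample; these values do not show whether libraries of a group share a culture.

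Members and gene lists were chosen with earlier results of these data known. All members were named, and from each list up to 4 called genes with the largest change and up to 2 others with the highest level; the text names a part of these and marks those outside the rule. Alternatives were other pseudocounts, filters, scalings, spread models, a replicate block, each library left out, and voom, which was added after seeing the data. The 2 planned count models were not run; voom on the recovered reads was used in their place. Longer forms of the 3' UTR word were not searched. Promoter sequences of the members are not shown, since no measurement here bears on them.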

Additional observations from a re-analysis of the deposited data

How the results depend on the processing

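Of 126 values of the 9 tested members under 14 alternatives, 118 kept their direction and side of the threshold, 8 kept their direction but lost the call, and none turned. The 8 were all of IGF2 and IGFBP4. Without the mean-variance trend, IGF2 had a log2 fold change of 0.19 (limma adjusted p = 0.0673) and IGFBP4 of -0.19 (0.0598). With 1 library left out, IGF2 ranged over 0.14 to 0.26 and IGFBP4 over -0.26 to -0.15, and 6 to 8 members were called. Over all alternatives, limma adjusted p was at most 0.0258 for IRS1, 0.0196 for IGF2R, 0.0160 for IGF1R, 0.00131 for IGFBP3, 0.0010 for IRS2 and 0.000184 for INSR, and IGFBP2 ranged over 0.0657 to 0.521. Counts of called genes stayed between 5868 and 6898. No scaling moved the median of all genes by more than 0.0107 in log2 units. Whether replicate numbers pair the libraries was not settled. Deviations of same-numbered libraries correlated at -0.01 to 0.05, and 4 of 6 libraries correlated best with their own number. With the replicate number as a block, 6898 genes and 8 members were called, against 6706 genes and 8 members without it. Among the lists, a limit of 5 CPM left 1 called protease gene in place of 2 and no further binding protein, and no limit gave 2 called binding proteins in place of 1, because the limit decides which genes are tested. The planned edgeR and DESeq2 fits were not run. Depth limits IGFBP1 (5 to 13 reads) and IGFBP5.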

Other observations

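IGFBPL1, which resembles the IGF-binding proteins, had a mean below the limit for testing, with 4 to 21 reads per library. It was at 1.31, 1.23 and 1.08 CPM in the SETD5-deficient libraries, against 0.468, 0.627 and 0.286 CPM in the control libraries, with no overlap. In a fit with no limit its log2 fold change was 0.60 (95% interval 0.30 to 0.90, limma adjusted p = 0.000834). In the same fit SOCS3, a feedback brake on cytokine and insulin receptors, had a log2 fold change of 0.38 (limma adjusted p = 0.0367). The groups of SOCS3 overlapped, at 8 to 25 reads per library. The IGFBP4 protease PAPPA had a log2 fold change of -0.04 (limma adjusted p = 0.853). HTRA1 and SOCS2 did not pass (0.112 and 0.568). All of these were named after their values were seen.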
